A study of Mus musculus with 12 samples.

Results

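The comparison described here sets resting bone marrow-derived macrophages that lack the nuclear receptor ERRα against resting macrophages that have it. Its members are the 6 arrays of cells given only PBS, the solvent control, out of 12 arrays in the series: 3 arrays of PBS-treated ERRα+/+ cells and 3 of PBS-treated ERRα-/- cells. By the labels, bone marrow came from male C57BL6 mice 6 to 8 weeks old. Its cells were turned into macrophages over 5 to 7 days with macrophage colony-stimulating factor. The other 6 arrays hold cells of the same genotypes given LPS, a bacterial cell wall component, at 100 ng/mL, and serve to set their genotype difference beside that of the resting cells and, in a fit of all 12 arrays, to estimate the spread. The labels do not say how Esrra was disrupted, how long PBS or LPS was left on, or whether the replicates of a group came from separate animals or cultures, so p-values measure the spread between these samples, which may be technical.

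ERRα, encoded by Esrra, is an orphan nuclear receptor: it binds DNA without a known natural hormone, at a short element related to that of the oestrogen receptors, and depends on the coactivators PGC-1α and PGC-1β (Ppargc1a, Ppargc1b). It is best known for driving genes of mitochondrial respiration and fatty acid oxidation in muscle, heart and brown fat. In macrophages it has been linked to mitochondrial function and to the restraint of Toll-like receptor signalling, the latter through A20 (Tnfaip3), an inhibitor of NF-κB.

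Levels are given as log2 of the array signal minus the array's 75th percentile, so that 0 is a signal at that percentile. A difference is ERRα-/- minus ERRα+/+ on that scale, with its standard error, and 1 unit is a doubling. The arrays lay on separate slides: replicate 1 of both genotypes on slide 1, replicates 2 and 3 on slide 2, and slide was part of the fit (limma, all 12 arrays, a slide effect for each treatment). A gene is called higher or lower where its p-value, adjusted over all 12783 genes tested, is under 0.05.

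Of the probes 45.35% to 56.7% were well above background on the 12 arrays, and no spot was saturated. Repeat spots of a probe varied by 12.37% and 8.118% on ERRα+/+ PBS replicates 2 and 3 and by 3.68% to 4.59% on the other arrays. In the 6 PBS arrays the first principal component, with 54.5% of the variance, separated the slides, and the next, with 27.3%, the genotypes. The number of arrays, 3 per group, limits the precision.

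Across the resting cells 967 genes were called (7.56% of those tested), 412 higher in ERRα-/- cells (3.22%) and 555 lower (4.34%). All 967 differed in the same direction in the 3 same-numbered pairs, and in 665 of them the 3 ERRα-/- arrays all lay on one side of the 3 ERRα+/+ arrays, which holds for 14.3% of all genes tested. Most called differences were modest: their median size was 0.741, and 327 exceeded 1 on the log2 scale, 114 of them rises and 213 falls. The main lines were a general rise of interferon-stimulated genes, a rise of cholesterol biosynthesis genes, a mixed change of chemokines, and a fall of genes that mark erythroid, megakaryocyte, stromal and endothelial cells, while no gene of the respiratory chain or the tricarboxylic acid cycle was called.

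The number of calls rests on how the slides are handled. With no slide term 62 genes were called, and with the replicate number as a block, which in these arrays is mostly the slide, 470. The LPS arrays add to the estimate of the spread: the 6 PBS arrays alone gave 564 calls, and without ERRα-/- LPS replicate 2 the count was 714. When replicates 2 and 3 of each group, which lay close to each other, were averaged and counted as 1 sample, limma called 0 genes with 2 residual degrees of freedom (1570 had an unadjusted p under 0.05). Without ERRα-/- PBS replicate 2, ERRα-/- PBS replicate 3 or ERRα+/+ PBS replicate 2, the count was 411, 419 or 580. With no slide term, with the replicate block, with the PBS arrays alone or without an LPS array, the fitted PBS difference stays the same by construction. With replicates 2 and 3 averaged its sign could not change either, as all 967 genes agreed over the 3 pairs. Without each of the PBS arrays just named in turn, none of the 967 changed direction. The slides can also be set against each other: of 1263 genes called within slide 2 alone, 1003 (79.41%) differed the same way on slide 1, against 57.33% of all genes.

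A gene's value is that of its brightest probe. Of the 967 called genes 211 had other probes that passed the background filter, 254 probes in all. Of those, 26 differed in the opposite direction and 76, these included, by less than 0.5 of the tested probe's log2 difference. Where the probes of a gene described here differed by over 1.5 times, both values are given.

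**Figure D1:**
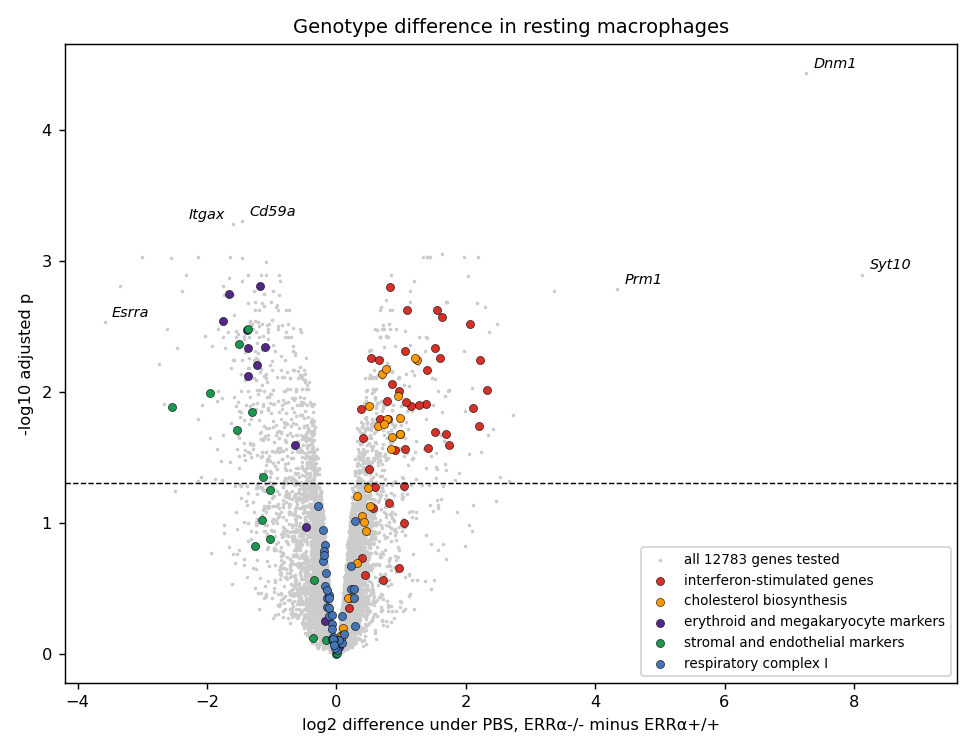
Each point is 1 of the 12783 genes, with the log2 difference under PBS (ERRα-/- minus ERRα+/+) on the x axis and -log10 of the adjusted p on the y axis; the dashed line is an adjusted p of 0.05 and coloured points are members of 5 gene lists. Interferon-stimulated and cholesterol genes lie to the right, erythroid, megakaryocyte, stromal and endothelial markers to the left, and complex I genes all lie under the line.

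Esrra itself was measured first, as a check of the labels. Its level was 4.54, 4.39 and 4.69 on ERRα+/+ replicates 1, 2 and 3, and 2.48, 0.25 and 0.15 on the ERRα-/- arrays. All ERRα-/- arrays were below all ERRα+/+ arrays, but ERRα-/- replicate 1, on slide 1, kept a clearly higher Esrra signal than replicates 2 and 3. The difference was -3.58 ± 0.41 (SE, n = 3 per group, adjusted p = 0.00294), a mean 12-fold higher in ERRα+/+ cells and the largest fall among the genes tested. The probe's place in the gene is not given in the files, so a probe outside the disrupted part would not check the deletion. The other members of the ERR family were low: Esrrg was not well above background on any PBS array, and Esrrb, at -4.32 to -2.46 on ERRα+/+ arrays and -4.62 to -3.09 on ERRα-/- arrays, was not called (difference -0.43 ± 0.56, adjusted p = 0.699). Of the coactivators, Ppargc1a was not well above background on any PBS array. Ppargc1b was near the threshold (0.87 ± 0.22, adjusted p = 0.0495) and its call ended with the replicate block (adjusted p = 0.0748) and without any 1 of 9 arrays, ERRα+/+ PBS replicate 2 and ERRα-/- PBS replicates 2 and 3 among them (adjusted p up to 0.17). None of the other 12 measured coactivators and corepressors of ERRα was called.

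Mitochondrial genes, the best-known targets of ERRα, stayed close together between the genotypes. No member was called among 37 measured genes of respiratory complex I, 26 of complexes II to IV with cytochrome c, 16 of ATP synthase, 25 of the tricarboxylic acid cycle and pyruvate entry, 20 regulators of mitochondrial biogenesis and 29 mitochondrial ribosomal proteins. Of all genes tested 7.56% were called. The largest difference among the 104 genes of the respiratory chain, ATP synthase and the tricarboxylic acid cycle was 0.5 in size. Of the 104, 16 had an unadjusted p under 0.05 (limma), beside 3037 of all 12783 genes tested, a larger share. Their direction leaned down: 71 of the 104 (68.3%) were below 0, against 54.7% of all genes tested. List medians were -0.061 for complex I, -0.05 for complexes II to IV, -0.018 for ATP synthase and -0.102 for the tricarboxylic acid cycle. The median over all genes was -0.0243. The lean was largest in pair 1, on slide 1. In pairs 1, 2 and 3 the complex I medians were -0.144, -0.028 and -0.05, and those of complexes II to IV -0.126, -0.021 and -0.06. For ATP synthase they were -0.141, 0.044 and -0.046, and for the tricarboxylic acid cycle -0.217, -0.016 and -0.096.

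Idh3a, a subunit of the NAD-dependent isocitrate dehydrogenase, read 2.53, 2.07 and 2.23 on ERRα+/+ arrays and 1.98, 2.08 and 1.98 on ERRα-/- arrays. The groups overlapped (-0.26 ± 0.11, adjusted p = 0.209). Cycs, cytochrome c, read 5.12, 4.75 and 4.53 against 5.00, 4.77 and 4.77 and was not called (0.05 ± 0.11, adjusted p = 0.833); its other probe differed by -0.256. Acadm, the medium-chain acyl-CoA dehydrogenase, differed by -0.20 ± 0.09 (adjusted p = 0.239), and Cpt1a, which loads long-chain fatty acids for import, by -0.34 ± 0.09 (adjusted p = 0.0551). The 3 ERRα-/- arrays of Cpt1a (3.77, 3.71 and 3.59) all lay below the ERRα+/+ arrays (4.15, 4.02 and 3.92), and its other probe differed by -0.623. The deacetylases Sirt1 and Sirt3 differed by -0.27 (adjusted p = 0.0867) and 0.07 (adjusted p = 0.697), and Pdk4, a kinase that closes pyruvate dehydrogenase, had no probe that passed the background filter.

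Fatty acid oxidation had 4 called members of 33 (12.1%, beside 7.56% of all genes tested), 2 higher and 2 lower. Called or not, the list leaned down, with a median of -0.164. Only 6 of the 33 were above 0, while of all genes tested 54.7% were below 0. Hadhb, the β subunit of the mitochondrial trifunctional protein, fell from 5.02, 4.79 and 4.89 to 4.39, 4.38 and 4.43 (-0.50 ± 0.07, adjusted p = 0.00684), a fall seen in every pair. Fabp4, a fatty acid carrier abundant in macrophages, was lower by a similar amount (-0.45 ± 0.10, adjusted p = 0.0352), a call lost with the replicate block (adjusted p = 0.081) and without any 1 of the 6 PBS arrays (up to 0.121). Acaa1a, a peroxisomal thiolase, rose (0.59 ± 0.10, adjusted p = 0.00979). Acsl3, a long-chain acyl-CoA synthetase, was also higher (0.70 ± 0.15, adjusted p = 0.0267), a call that ended without PBS replicate 2 or 3 of either genotype (adjusted p up to 0.107) and with the replicate block (0.0552).

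Of 25 measured genes of glycolysis and lactate 3 were called lower and none higher (median -0.156), beside 4.34% of all genes called lower. Slc2a1, the glucose transporter GLUT1, was lower at 2.50, 2.65 and 2.54 than in ERRα+/+ cells at 3.56, 3.22 and 3.05 (-0.71 ± 0.11, adjusted p = 0.00947). The glycolytic enzymes Ldhb (-0.55 ± 0.11, adjusted p = 0.0215) and Aldoa (-0.40 ± 0.09, adjusted p = 0.0356) were called in the fit of all arrays, but not with the replicate block (adjusted p = 0.0617 and 0.0855) or without ERRα-/- PBS replicate 2 or 3, among other arrays (up to 0.0872 and 0.13). Among 17 hypoxia and HIF targets, which include Slc2a1, 1 rose and 3 fell (23.5% called, beside 7.56% of all genes). Egln3, an oxygen-sensing prolyl hydroxylase, fell by 1.21 ± 0.17 on the log2 scale (adjusted p = 0.005). Adm, the vasodilator adrenomedullin, fell by 0.98 ± 0.17 (adjusted p = 0.0124, 0.0567 at most without 1 array, ERRα-/- PBS replicate 2 or 3). Ndrg1, a stress-induced gene, rose by 0.95 ± 0.17 (adjusted p = 0.0149, 0.0508 with the replicate block and up to 0.0662 without ERRα+/+ PBS replicate 2 or ERRα-/- PBS replicate 2 or 3). Slc2a6, another member of the glucose transporter family, which is in no list, rose by 1.45 ± 0.11 (adjusted p = 0.000929).

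**Figure D2:**
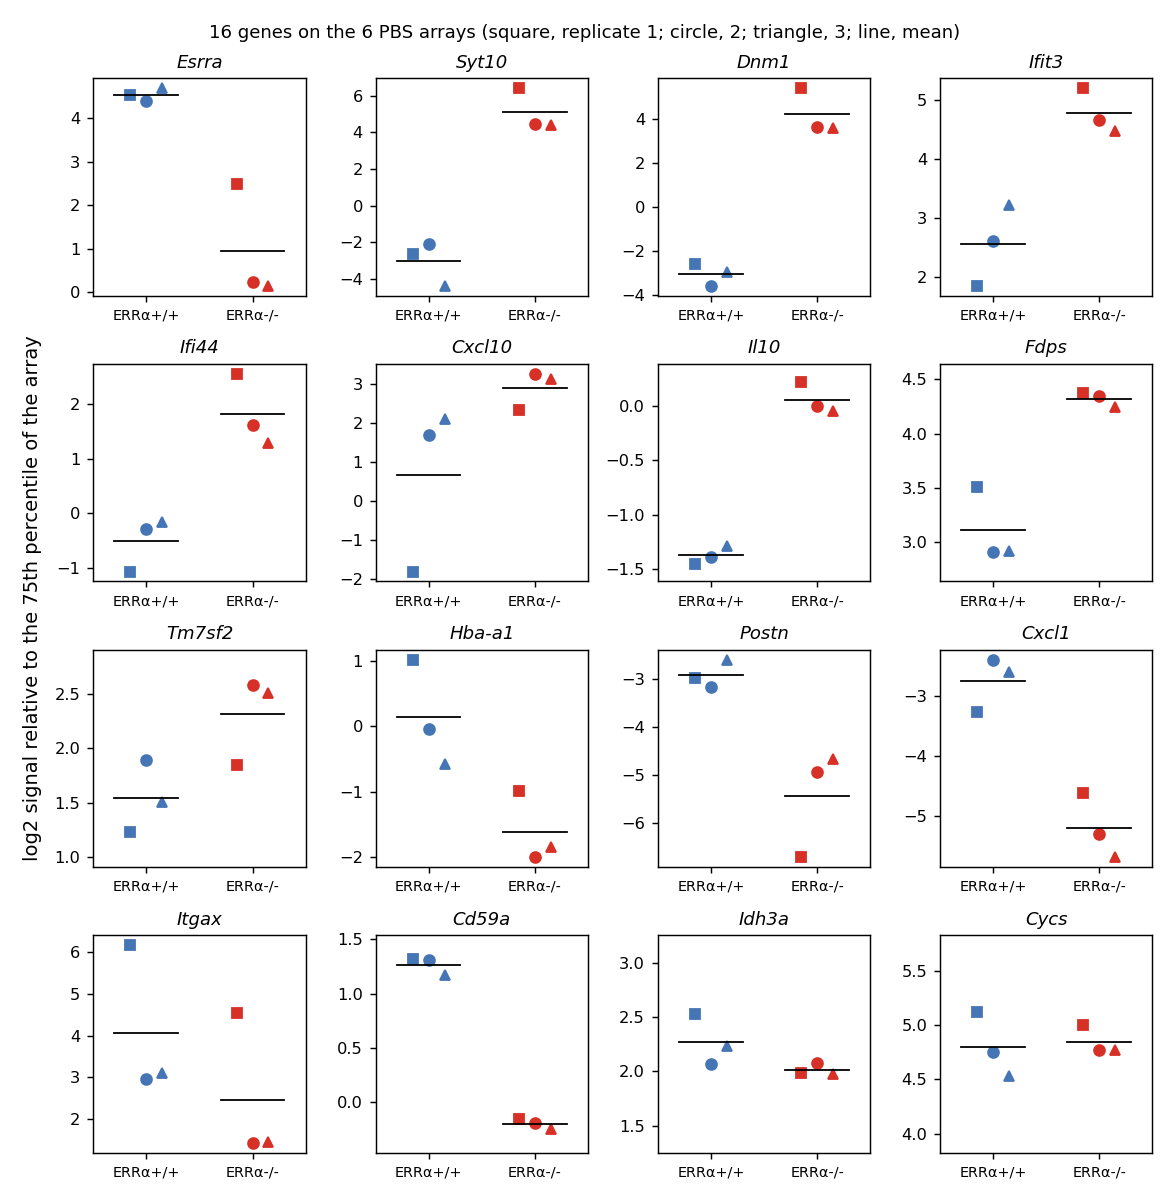
Levels of 16 genes on the 6 PBS arrays, on the y axis as log2 signal relative to the 75th percentile of the array, with 1 point per array and a line at the mean of each group; the y axes differ between panels and do not start at 0. Esrra, Cxcl1 and Cd59a are lower and Dnm1, Syt10 and Il10 higher on every ERRα-/- array, while Idh3a and Cycs overlap.

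Interferon-stimulated genes formed the broadest shift. These genes are switched on through the interferon receptor and the transcription factors it activates, which bind interferon response elements in their promoters, and they encode antiviral effectors, sensors of foreign RNA and DNA and proteins of antigen processing. Of 44 measured members, 34 were called higher and none lower, beside 3.22% of all genes called higher. The ERRα-/- arrays lay entirely above the ERRα+/+ arrays for 37 of the 44. Among all genes tested the groups did not overlap, in either direction, for 14.3%. All 44 mean differences were above 0, with a median of 1.04.

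The promoters of 4 interferon-inducible genes that hold a match to the interferon response element are printed here. Of the 4, Cxcl10 is counted with the chemokines and not in the list above. The sequences are the 250 bases before the RefSeq start in build GRCm38.p6, 5′ to 3′ along the gene, in lower case, with each match to the interferon response element (GAAA, any 2 bases, GAAA) or its reverse complement in capitals. Ifit3 and Cxcl10 are among the largest rises, and Isg15 and Rsad2 were added for their matches after their values were seen.
Ifit3, chr19:34583279-34583528, plus strand: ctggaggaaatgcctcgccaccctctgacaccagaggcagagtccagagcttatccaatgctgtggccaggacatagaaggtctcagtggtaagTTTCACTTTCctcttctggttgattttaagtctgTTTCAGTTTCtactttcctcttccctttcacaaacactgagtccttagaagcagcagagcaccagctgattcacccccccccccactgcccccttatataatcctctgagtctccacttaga
Cxcl10, chr5:92348890-92349139, minus strand: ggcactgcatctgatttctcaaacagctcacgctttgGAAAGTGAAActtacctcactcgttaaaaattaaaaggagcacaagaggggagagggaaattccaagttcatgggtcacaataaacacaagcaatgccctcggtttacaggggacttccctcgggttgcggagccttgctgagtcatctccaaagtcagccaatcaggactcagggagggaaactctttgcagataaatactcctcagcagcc
Isg15, chr4:156200819-156201068, minus strand: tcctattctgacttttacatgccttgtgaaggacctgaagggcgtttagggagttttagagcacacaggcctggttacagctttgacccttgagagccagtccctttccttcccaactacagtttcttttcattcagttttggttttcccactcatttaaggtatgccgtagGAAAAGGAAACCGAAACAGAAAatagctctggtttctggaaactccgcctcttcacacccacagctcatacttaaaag
Rsad2, chr12:26456453-26456702, minus strand: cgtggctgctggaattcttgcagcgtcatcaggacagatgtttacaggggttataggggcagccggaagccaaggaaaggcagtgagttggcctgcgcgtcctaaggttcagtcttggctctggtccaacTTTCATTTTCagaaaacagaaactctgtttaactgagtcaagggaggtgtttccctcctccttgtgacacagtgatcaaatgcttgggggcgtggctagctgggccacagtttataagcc
Isg15 holds 3 overlapping matches, which begin 78, 72 and 66 bases before the start, Ifit3 2 matches, and Cxcl10 and Rsad2 1 match each. Over windows from 250 bases before to 50 after the start, the element was found on either strand in 20 of the 35 interferon-stimulated genes with a RefSeq promoter (57.1%). It was found in 15% of the 320 genes called higher that have one, in 4.63% of the 410 called lower and in 4.06% of the 10271 tested genes, beside 3.44% of all 32851 windows in the table. The genes called higher include the called members of the interferon list, so those shares overlap. The element was chosen after the rise of the interferon-stimulated genes was seen.

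Among the antiviral effectors, Ifit3, a member of the family that binds viral RNA, read 1.85, 2.60 and 3.23 on ERRα+/+ arrays and 5.19, 4.66 and 4.47 on ERRα-/- arrays. The groups were well apart (2.22 ± 0.31, adjusted p = 0.00575). Ifit2 rose by 2.12 ± 0.37 (adjusted p = 0.0132) and Ifit1bl1, of the same family but outside the list, by 2.35 ± 0.29 (adjusted p = 0.00348). Ifit3b, a near copy of Ifit3 whose probe may share its transcripts, was higher by 2.20 ± 0.42 (adjusted p = 0.0183), a call lost with the replicate block (adjusted p = 0.0619) and narrowly without replicate 2 of either PBS group (adjusted p up to 0.0509).

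Ifi44, an interferon-induced protein, showed the largest rise of the list, from -1.07, -0.29 and -0.16 to 2.56, 1.61 and 1.29 (2.33 ± 0.38, adjusted p = 0.00964). Isg15, a ubiquitin-like modifier, read 3.02, 4.35 and 4.70 on ERRα+/+ arrays and 6.14, 5.58 and 5.55 on ERRα-/- arrays (1.74 ± 0.36, adjusted p = 0.0256), a call that ended with the replicate block (adjusted p = 0.0773) and without ERRα+/+ PBS replicate 2 or ERRα-/- PBS replicate 2 or 3 (up to 0.0656). Rsad2, the antiviral enzyme viperin, rose from 1.37, 1.63 and 1.85 to 3.51, 3.09 and 2.89 (1.55 ± 0.17, adjusted p = 0.00235).

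Irf7, the factor that amplifies interferon production, differed by 1.42 ± 0.30 (adjusted p = 0.0268), with groups that overlapped, slide 1 being higher in both. Its call ended with the replicate block (adjusted p = 0.0783) and without any PBS array but ERRα+/+ replicate 3 (up to 0.069). The guanylate-binding proteins Gbp3 (1.05) and Gbp5 (0.96), which defend against bacteria in the cytosol, had large mean differences that rested on slide 1 and were not called (adjusted p = 0.0996 and 0.223). Irf7, Isg15, Rsad2, Gbp3 and Gbp5 were singled out after their values were seen.

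The shift was larger on slide 1 than on slide 2. The median difference of the 44 genes was 1.47 in pair 1, 0.937 in pair 2 and 0.612 in pair 3, and 44, 43 and 41 of the genes were higher in the ERRα-/- array of the pair. Their summed signal, as a multiple of the 75th percentile, was 499, 564 and 661 on ERRα+/+ arrays and 1230, 965 and 911 on ERRα-/- arrays. Of 16 interferon ligand genes on the array, Ifnb1 was not well above background on any PBS array and Ifng on only 1, an ERRα-/- array; the probes of several Ifna genes gave signal in both genotypes, but these near-identical genes cannot be told apart by a probe. The receptor genes Ifnar1 (0.21, adjusted p = 0.423; 0.116 and 0.007 by its other probes) and Ifnar2 (0.21, adjusted p = 0.423) were not called. With the replicate block 21 members were called, and with no slide term 0 (25 at an unadjusted p under 0.05). With replicates 2 and 3 averaged 0 were called (39 at an unadjusted p under 0.05, beside 1570 of all 12783 genes). Without ERRα-/- PBS replicate 2, the array whose loss cost the most calls, 22 were called.

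**Figure D3:**
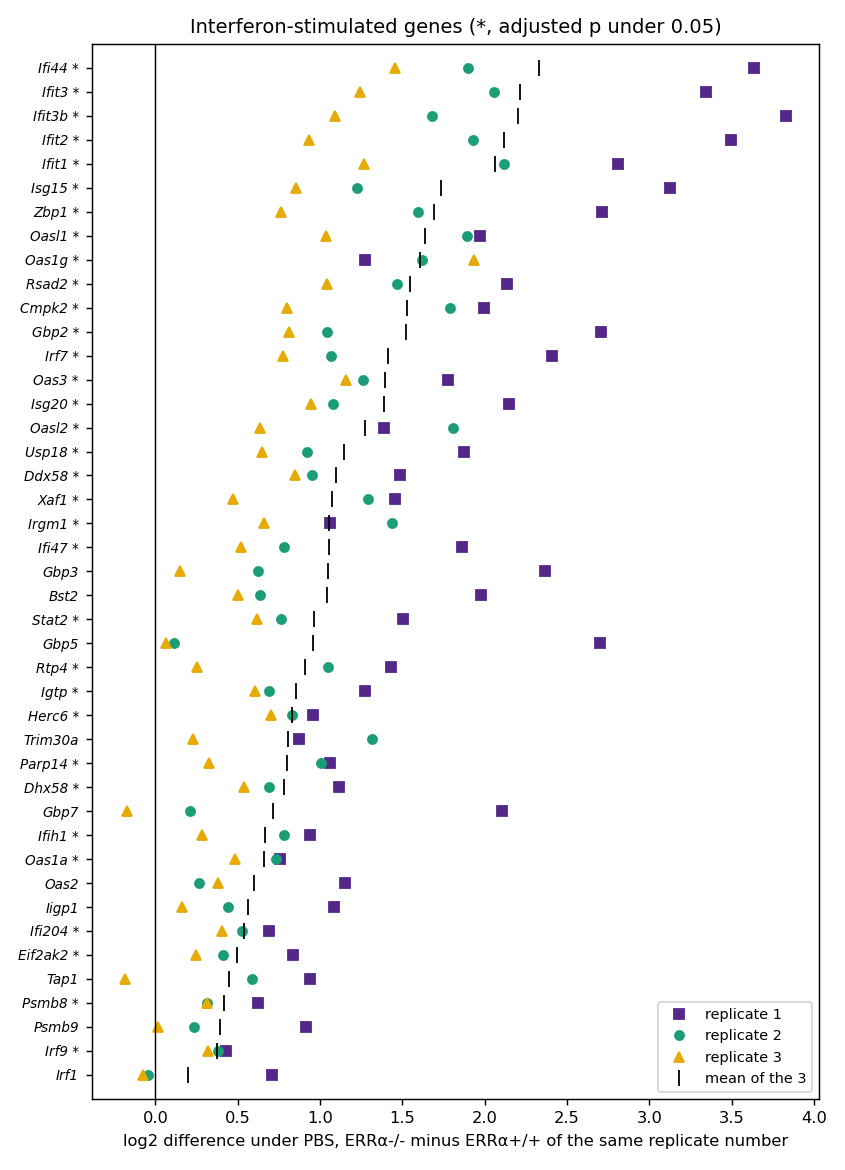
Each row is 1 of 43 of the 44 interferon-stimulated genes, with the log2 difference of each same-numbered pair of PBS arrays (ERRα-/- minus ERRα+/+) on the x axis and the mean as a bar. The genes called higher, marked with an asterisk, all lie to the right of 0 in every pair, and pair 1, on slide 1, is usually the farthest to the right.

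Chemokines changed in both directions: of 19 measured, 6 rose and 3 fell (47.4% called, beside 7.56% of all genes). Ccl12, a monocyte attractant, was barely measured in ERRα+/+ cells (-5.09, -3.53 and -3.41, with 2 of the 3 arrays well above background) and higher in ERRα-/- cells (-0.49, -1.66 and -1.68; difference 2.74 ± 0.50, adjusted p = 0.015, 0.0544 with the replicate block). Cxcl10, which attracts T cells and is itself interferon-inducible, read -1.80, 1.69 and 2.09 against 2.33, 3.25 and 3.11 (2.24 ± 0.49, adjusted p = 0.0288). Most of its difference came from the low value of ERRα+/+ replicate 1, and the call ended with the replicate block (adjusted p = 0.0867) and without ERRα+/+ PBS replicate 2, ERRα-/- PBS replicate 2 or ERRα-/- LPS replicate 2 (adjusted p up to 0.0681). Ccl5, Cxcl9, Ccl3 and Ccl4 made up the other rises, by 1.73, 1.49, 1.20 and 1.04. The call of Ccl4 ended with the replicate block (adjusted p = 0.0773) and without any 1 of 7 arrays (up to 0.0895, ERRα+/+ PBS replicate 2). Another probe of Cxcl9, above background on 1 of 3 ERRα+/+ arrays, differed by 3.483.

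The neutrophil attractant Cxcl1 fell, from -3.26, -2.38 and -2.59 to -4.61, -5.31 and -5.69 (-2.46 ± 0.33, adjusted p = 0.00462). On ERRα-/- arrays it was well above background on 1 of 3. Cxcl14, a chemokine of resting tissues, fell by more (-3.35 ± 0.32, adjusted p = 0.00155), also with 1 of 3 ERRα-/- arrays above background, and Cxcl5, another neutrophil attractant, was the remaining fall (-1.37). Ccl2, the main monocyte attractant, did not pass the test (-0.09, adjusted p = 0.602).

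Cytokines and their controls leaned upward, beside 3.22% of all genes called higher and 4.34% lower. Of 14 inflammatory cytokines 4 were called higher: Tnfsf10, the death ligand TRAIL and an interferon-inducible gene, rose by 1.37 ± 0.19 (adjusted p = 0.00488), and Tnfsf15, Tnf and Tnfsf9 by 0.78, 0.67 and 0.52. The last 3 calls ended with the replicate block (adjusted p = 0.0742, 0.101 and 0.0757) and without ERRα-/- PBS replicate 2, among other arrays (adjusted p up to 0.0588, 0.0718 and 0.0846 across the arrays left out). Il1b, the precursor of interleukin-1β, differed by 1.65 and was not called (adjusted p = 0.146). Il10, the main anti-inflammatory cytokine of macrophages, rose evenly, from -1.45, -1.39 and -1.29 to 0.22, 0.00 and -0.05 (1.43 ± 0.10, adjusted p = 0.000929), with little spread in either group.

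Il10 belongs to 33 genes of negative feedback on NF-κB and TLR signalling, of which 4 rose and 1 fell (median 0.202). That is 15.2% called, beside 7.56% of all genes. Zc3h12a, the RNase Regnase-1 that degrades cytokine mRNAs, rose from -0.11, -0.13 and -0.05 to 0.76, 0.58 and 0.47 (0.70 ± 0.09, adjusted p = 0.0033). Irak3, a pseudokinase that dampens TLR signalling, was higher by 1.03 ± 0.19 (adjusted p = 0.0158; 0.0601 without ERRα+/+ PBS replicate 2). Tnfaip3, which encodes A20, read 2.81, 3.03 and 3.19 on ERRα+/+ arrays and 2.94, 3.30 and 3.23 on ERRα-/- arrays. These overlapped (0.15 ± 0.09, adjusted p = 0.343).

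Among 30 genes of TLR and NF-κB signalling 5 rose and 1 fell (20% called, beside 7.56% of all genes). Tlr2, the receptor for bacterial lipopeptides, differed by 1.24 ± 0.25 (adjusted p = 0.0237; 0.0632 without ERRα-/- PBS replicate 2 and 0.0742 with the replicate block). Cd14, the co-receptor of TLR4 for LPS, was higher by 0.74 ± 0.18 (adjusted p = 0.0394, 0.0993 with the replicate block and up to 0.106 without 1 array). Lbp, the LPS-binding protein, was the fall (-1.43 ± 0.30, adjusted p = 0.0245), a call that ended without any PBS array other than ERRα+/+ replicate 3 (adjusted p up to 0.0941). Acod1, which makes itaconate, and the acute-phase protein gene Saa3 had large mean differences of 2.52 (adjusted p = 0.045) and 2.34 (adjusted p = 0.0215), carried by ERRα-/- replicate 1 at 3.11 and 4.05. Neither held with the replicate block (adjusted p = 0.116 and 0.0647), nor without ERRα+/+ PBS replicate 3 or ERRα-/- PBS replicate 3 in turn, among others for Acod1 (adjusted p up to 0.0904 and 0.0631).

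Genes of alternative activation moved more down than up, with 5 falls and 2 rises among 17 (41.2% called, beside 7.56% of all genes). Fn1, fibronectin, fell from 2.51, 2.02 and 1.60 to -0.05, 0.29 and 0.38 (-1.83 ± 0.22, adjusted p = 0.0033). Chil3, the chitinase-like protein Ym1, fell by 1.29 ± 0.27 (adjusted p = 0.0253), and the RNases Ear2 and Rnase2a by 1.55 and 1.36. The calls of Chil3 and Rnase2a ended with the replicate block (adjusted p = 0.0764 and 0.0552), and all of Chil3, Ear2 and Rnase2a lost theirs without ERRα-/- PBS replicate 2 and some other PBS arrays (adjusted p up to 0.0966, 0.056 and 0.074). In MHC class II presentation 1 of 14 genes was called (7.14%, near the 7.56% of all genes). It was the co-stimulatory receptor Cd40 (1.11, adjusted p = 0.0359, 0.101 with the replicate block and up to 0.0839 without 1 array). In the inflammasome list 2 of 15 were called (13.3%), both higher. They were Casp4 (0.75) and Naip5 (0.36), with adjusted p = 0.0599 and 0.0903 with the replicate block and up to 0.0512 and 0.107 without 1 array.

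Genes of cholesterol biosynthesis rose as well. They encode the steps from acetyl-CoA to cholesterol and their control by SREBP-2, the factor that raises them when sterols are low. Of 27 measured members 13 were called higher and none lower, beside 3.22% of all genes called higher. All 27 mean differences were above 0 (median 0.503), and for 16 of them all ERRα-/- arrays lay above all ERRα+/+ arrays. Among all genes tested the groups did not overlap, in either direction, for 14.3%.

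Fdps, the farnesyl diphosphate synthase, rose from 3.51, 2.91 and 2.92 to 4.37, 4.35 and 4.25 (1.21 ± 0.17, adjusted p = 0.00546). Its separation was wider on slide 2 than on slide 1, as for the list, whose median was 0.28 in pair 1 and 0.65 over pairs 2 and 3. Sqle, the squalene epoxidase, and Idi1, the isopentenyl diphosphate isomerase, were both higher by 0.98. Those calls ended without ERRα-/- PBS replicate 2 or 3 (Idi1, adjusted p up to 0.069), or without PBS replicate 2 or 3 of either genotype (Sqle, up to 0.088, and 0.0587 with the replicate block). Srebf2, which encodes SREBP-2, was not called (0.07, adjusted p = 0.786), but its other probe was higher by 0.797.

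Without ERRα-/- PBS replicate 2 or 3, 4 or 5 members of the list were called, and with no slide term 0 (15 at an unadjusted p under 0.05). With replicates 2 and 3 averaged none was called either (15 at an unadjusted p under 0.05, beside 1570 of all 12783 genes). The sterol response element TCACNCCAC, searched for on either strand after the rise was seen, was found in 1 of the 20 members with a promoter in the table (5%), beside 1.37% of tested genes. Among 18 LXR targets and fatty acid synthesis genes 3 rose and none fell (16.7% called, beside 7.56% of all genes). The rises were the desaturase Scd2 by 1.53 ± 0.24 (adjusted p = 0.00791), Scd1 by 1.09 (adjusted p = 0.0295) and the fatty acid synthase Fasn by 0.71 (adjusted p = 0.0165). Scd1 lost its call without ERRα-/- PBS replicate 2 and 4 of the other PBS arrays (adjusted p up to 0.115), and Fasn without ERRα-/- PBS replicate 2 (adjusted p = 0.0635). Of 15 lipoprotein and scavenger receptors 2 rose and 1 fell (20% called, beside 7.56% of all genes). Stab2, which clears hyaluronan, fell by 1.26 ± 0.13 (adjusted p = 0.00206). The HDL receptor Scarb1 rose by 0.97 ± 0.15 (adjusted p = 0.00763, and 0.407 by its other probe).

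**Figure D4:**
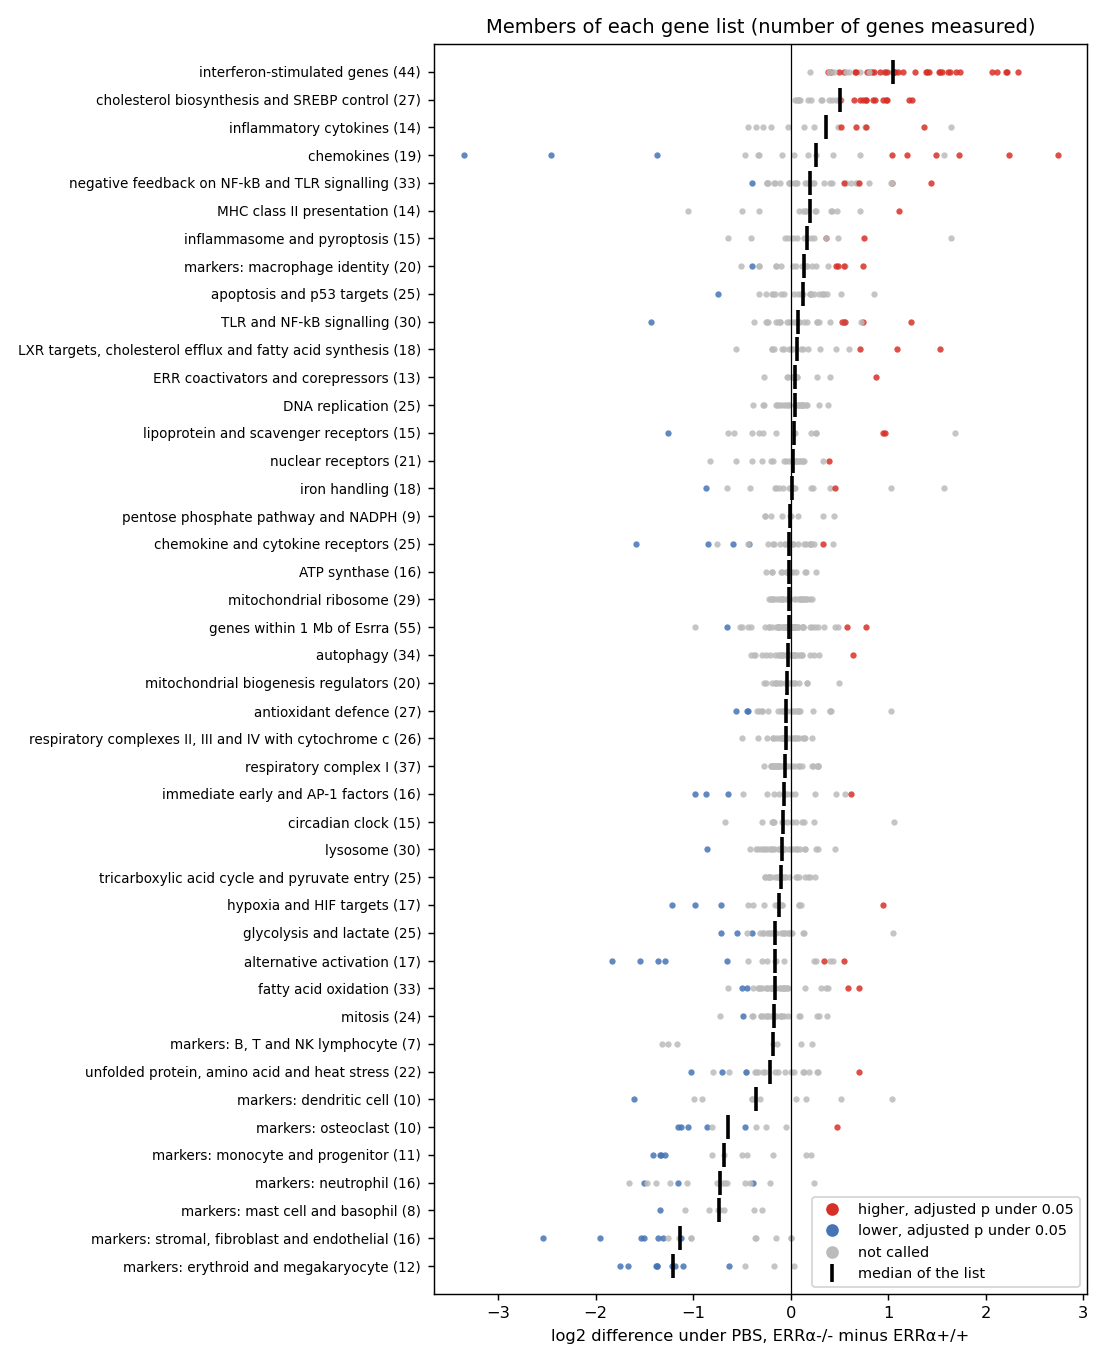
Members of 44 gene lists, ordered by median, with the log2 difference under PBS (ERRα-/- minus ERRα+/+) of each gene on the x axis; red and blue points were called higher and lower, grey points were not called, and the bar is the list's median. Interferon-stimulated genes (median 1.04) and cholesterol genes (0.503) stand at the top, and erythroid and megakaryocyte (-1.2) and stromal markers (-1.14) at the bottom.

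All 20 macrophage identity genes on the array passed the background filter, as did all 16 neutrophil and all 11 monocyte and progenitor markers. Passing it therefore does not single out macrophages. Csf1r read 8.69 to 9.39 and Adgre1, a surface marker of mouse macrophages, 6.96 to 8.61 over the 6 arrays. Neither was called (0.03, adjusted p = 0.903, and 0.16, adjusted p = 0.625). Dimmer probes differed by 0.552 and 0.468 for Csf1r and by 0.438 for Adgre1. The counts of calls that follow stand beside 7.56% of all genes tested. Of the 20, 4 were called higher (Cd14, Lyz2, Maf and Spi1, by 0.74, 0.55, 0.48 and 0.47) and Cebpa lower (-0.40; 0.0984 with the replicate block and up to 0.124 without ERRα-/- PBS replicate 3, 1 of 6 arrays whose loss ended the call). The calls of the 4 higher genes ended without ERRα-/- PBS replicate 2 or 3, among other arrays (adjusted p up to 0.106, 0.0795, 0.0909 and 0.127), and those of Cd14, Maf and Spi1 also with the replicate block (0.0993, 0.1 and 0.0871). Their summed signal was 2650 to 3420 times the 75th percentile on ERRα+/+ arrays and 3020 to 3450 times on ERRα-/- arrays. Itgax, the integrin CD11c of dendritic cells and some macrophages, fell from 6.17, 2.95 and 3.11 to 4.53, 1.43 and 1.45 (-1.61 ± 0.10, adjusted p = 0.000522), a like step on each slide although slide 1 was far higher, and it was the only call among 10 dendritic cell markers.

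Markers of other bone marrow cells were lower in the ERRα-/- samples. In bulk RNA, fewer cells of a type and less of its RNA per cell cannot be told apart. Of 12 measured erythroid and megakaryocyte markers 9 were lower and none higher (median -1.2), beside 4.34% of all genes called lower. The α-globin genes Hba-a1 and Hba-a2 fell, Hba-a1 from 1.01, -0.04 and -0.58 to -0.997, -2.002 and -1.841 (-1.75 ± 0.20, adjusted p = 0.00285); the 2 genes are near-identical copies, so their probes cannot separate them. Gata1, the master factor of both lineages, fell by 1.38 ± 0.17 (adjusted p = 0.00336), and the platelet receptor gene Gp1ba by 1.37 ± 0.18 (adjusted p = 0.00462). The defining erythroid genes Alas2, Hbb-bs and Klf1 were not well above background on any PBS array. The summed signal of the list was 132 to 178 on ERRα+/+ arrays and 90.2 to 95 on ERRα-/- arrays. With no slide term 5 of the markers were called.

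Of 16 stromal, fibroblast and endothelial markers 7 were lower and none higher (median -1.14), beside 4.34% of all genes called lower. Postn, the matrix protein periostin, and Emcn, an endothelial sialomucin, were well above background on all ERRα+/+ arrays and on no ERRα-/- array, at least 3.8-fold and 2.48-fold higher in ERRα+/+ cells (a bound from the lowest signal that counts as above background; adjusted p = 0.013 and 0.0102). Cxcl12, the stromal chemokine that retains stem cells in marrow, fell from -0.686, -1.003 and -0.991 to -2.463, -2.475 and -2.245 (-1.50 ± 0.20, adjusted p = 0.00432). The collagen genes Col1a1 and Col1a2 were lower by mean but not called (-1.26 and -1.15, adjusted p = 0.15 and 0.0953). Tek was not well above background on any PBS array, and the list's summed signal was 48.7 to 55.5 in ERRα+/+ and 30.7 to 37.1 in ERRα-/- samples. With no slide term 2 of these markers were called, and without ERRα+/+ PBS replicate 2, 4.

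Other marker sets moved less evenly. Their counts stand beside 3.22% of all genes called higher and 4.34% called lower. Of 10 osteoclast markers 5 were lower and Nfatc1 higher (0.47, and 0.3 by its other probe), a call that ended with the replicate block (adjusted p = 0.0709) and without PBS replicate 2 or 3 of either genotype (up to 0.0861). Dcstamp, needed for cell fusion, fell by 1.13 ± 0.20 (adjusted p = 0.0127, 0.0501 with the replicate block), Atp6v0d2, a proton pump subunit, by 0.86 ± 0.12 (adjusted p = 0.00531), and Mmp9, a gelatinase also listed among neutrophil markers, by 1.15 ± 0.14 (adjusted p = 0.00305). Of 11 monocyte and progenitor markers 4 were lower, with a summed signal of 58.3 to 92.6 in ERRα+/+ and 31.5 to 39.9 in ERRα-/- samples: Gata2 (-1.34 ± 0.15, adjusted p = 0.00285), Ms4a3, Cd34 and Chil3. Of 16 neutrophil markers 3 were lower (Mpo, Mmp9 and Elane), with summed signals of 460 to 612 and 392 to 501 that overlapped. The calls of Ms4a3, Cd34, Mpo and Elane ended without ERRα-/- PBS replicate 2 and other arrays (adjusted p up to 0.12, 0.111, 0.0904 and 0.132), and those of Cd34, Mpo and Elane also with the replicate block (0.0511, 0.0651 and 0.0789). No marker of B, T and NK cells was called among 7 measured, and 1 of 8 mast cell and basophil markers, Gata2. The part of these cell types in the other results was not tested. As a check of sex, the Y-linked genes Ddx3y, Eif2s3y, Kdm5d and Uty were above background on all PBS arrays, and none was called. Xist, a transcript of female cells, did not pass the background filter. It was above background on 1 of 3 ERRα+/+ and 2 of 3 ERRα-/- PBS arrays (means of its brightest probe -6.17 and -2.57). The source of this signal was not tested.

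The steepest changes fell outside the lists. Syt10, a synaptotagmin of calcium-triggered secretion known from neurons, read -2.65, -2.09 and -4.39 on ERRα+/+ arrays and 6.40, 4.45 and 4.41 on ERRα-/- arrays. That is a difference of 8.13 ± 0.72 (adjusted p = 0.00127), with 2 of 3 ERRα+/+ arrays above background. Dnm1, the neuronal dynamin of vesicle scission, rose from -2.62, -3.60 and -2.99 to 5.39, 3.63 and 3.58 (7.26 ± 0.28), with the smallest adjusted p of all genes, 3.66e-05. That rise was on 1 of its 2 measured probes: the other, above background on all 6 arrays, read -0.93, -1.51 and -1.24 against -0.82, -1.18 and -1.04, a difference of 0.212. Syt10 lies on chromosome 15, Dnm1 on chromosome 2 and Esrra on chromosome 19.

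Next came Prm1, the sperm chromatin protein protamine 1 (chromosome 16), with a difference of 4.35 ± 0.42 (adjusted p = 0.00164), and the long non-coding RNA 1700061I17Rik (3.37 ± 0.33, adjusted p = 0.00168), both above background on 1 of 3 ERRα+/+ arrays and all ERRα-/- arrays. Tox4, a DNA-binding protein, rose from 1.54, 1.30 and 1.23 to 4.16, 3.09 and 3.40 (2.20 ± 0.17, adjusted p = 0.000929) on its tested probe, while its other probe read 1.53, 1.91 and 2.02 against 1.55, 2.22 and 2.09 (0.131). For Dnm1 and Tox4 the rise is therefore shown for 1 probe, not for the gene. Gm14548 and Lilra6, both of a family of paired immunoglobulin-like receptors whose copies are alike, rose by 2.48 ± 0.29 and 1.97 ± 0.16 (adjusted p = 0.00305 and 0.000929), and their probes may not separate the copies; other probes of Lilra6 differed by 1.768 and 0.646. Slc13a3, a dicarboxylate carrier, differed by 2.43 ± 0.47 (adjusted p = 0.0191), most of it on slide 1 (1.08 against 5.37), and Fmr1nb, a testis gene, by 2.66 ± 0.67 (adjusted p = 0.0482), nearly all of it on slide 2. The calls of Slc13a3 and Fmr1nb ended with the replicate block (adjusted p = 0.0619 and 0.111), the first also without ERRα+/+ PBS replicate 2 (adjusted p = 0.0524) and the second without any array but replicate 1 of the PBS groups (up to 0.164).

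Smaller rises with little spread included Pim2, a survival kinase (1.63 ± 0.11, adjusted p = 0.000883), Hpgd, which inactivates prostaglandins (1.34 ± 0.11, adjusted p = 0.000929), the nucleoside transporter gene Slc28a2b (1.41 ± 0.10, and 0.731 by its other probe), Plekha4 (1.41 ± 0.11, and 0.198 by its other probe), the E3 ligase Rnf24 (0.84 ± 0.07, adjusted p = 0.00127) and Tal2, a leukaemia-linked transcription factor (2.30 ± 0.25, adjusted p = 0.00224).

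On the falling side, Camk2b, a calcium-dependent kinase, went from 1.20, 0.71 and 1.28 to -1.80, -1.80 and -2.25 (-3.01 ± 0.24, adjusted p = 0.000929); its other, dimmer probe differed by -1.226. The complement regulator Cd59a fell from 1.32, 1.31 and 1.17 to -0.16, -0.19 and -0.25 (-1.46 ± 0.09, adjusted p = 0.000497), the most even fall in the data by p-value. Vcam1, an adhesion receptor of macrophages in marrow and of endothelium, fell from 1.83, 0.54 and 0.37 to 0.04, -2.17 and -2.09 (-2.32 ± 0.21, adjusted p = 0.00127). Itgad, the integrin CD11d, and Vsig4, a complement receptor of tissue macrophages, fell by 2.62 ± 0.32 and 2.67 ± 0.46 (adjusted p = 0.0033 and 0.0124), with 1 of 3 ERRα-/- arrays above background in each and groups that overlapped, slide 1 being higher; Vsig4 lost its call without ERRα+/+ PBS replicate 2 (adjusted p = 0.0503).

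Among the other large falls, Sox18, a factor of endothelial identity, and Esm1, an endothelial proteoglycan, were above background on no ERRα-/- array and at least 3.72-fold and 3.54-fold higher in ERRα+/+ cells (adjusted p = 0.00614 and 0.000941), as was the protease gene Bace2 (at least 3.93-fold, adjusted p = 0.00168). Ptprb, a vascular phosphatase, differed by -2.14 ± 0.39 (adjusted p = 0.0161; up to 0.0583 without ERRα+/+ PBS replicate 2 or 3). Epb41l3, a membrane skeleton protein (-2.14 ± 0.16, adjusted p = 0.000929), Tm4sf1 (-1.65 ± 0.13), the elongation cofactor gene Eaf2 (-1.47 ± 0.12), the heparan sulphate proteoglycan gene Sdc1 (-1.16 ± 0.10), Cd226 (-1.09 ± 0.09) and Cdk5rap1 (-0.89 ± 0.08) fell with little spread. The chemokine receptors Ccr1 (at least 2.52-fold higher in ERRα+/+ cells, where alone it was above background) and Ccr3 (-0.85 ± 0.10, adjusted p = 0.0031) fell. They were among 4 falls and 1 rise in 25 chemokine and cytokine receptors (20% called, beside 7.56% of all genes). Nrcam and Cyp4b1 also passed the test (-2.14 and -2.09, adjusted p = 0.0479 and 0.0445) and lost it with the replicate block (adjusted p = 0.118 and 0.102) and without most arrays in turn (up to 0.16 and 0.154).

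The remaining lists held few calls, and their counts stand beside 7.56% of all genes tested. In iron handling (18 genes) the exporter ferroportin, Slc40a1, fell by 0.86 ± 0.13 (adjusted p = 0.00684) and Slc11a2 was called higher (0.46, adjusted p = 0.042; 0.0905 with the replicate block, up to 0.13 without 1 array, ERRα+/+ PBS replicate 1). In antioxidant defence 3 of 27 were lower, Srxn1, Gsr and Gclc, by 0.56 to 0.44, and all 3 lost the call with the replicate block (adjusted p = 0.0773, 0.0514 and 0.0786) and without ERRα-/- PBS replicate 2 or 3, among other arrays (up to 0.0986, 0.088 and 0.0878). In stress responses (22 genes) 3 fell, led by the glutathione-degrading enzyme Chac1 (-1.02 ± 0.15, adjusted p = 0.00626), and 1 rose. All calls of this list but that of Chac1 ended with the replicate block (adjusted p = 0.116 to 0.12). They also ended without ERRα-/- PBS replicate 2 or 3, among other arrays (up to 0.134). Among 16 immediate early factors Egr2, Egr1 and Fosl2 were lower and Klf2 higher; Fosl2, a component of AP-1, differed by -0.64 ± 0.09 (adjusted p = 0.00505), and the other 3 lost the call without ERRα-/- PBS replicate 2, among other arrays (Egr2, Egr1 and Klf2, adjusted p up to 0.129, 0.0979 and 0.0609; with the replicate block Egr2 0.097 and Egr1 0.0757). Bcl2a1d, an anti-apoptotic gene with near-identical copies, was the only call among 25 apoptosis and p53 genes (-0.74 ± 0.09, adjusted p = 0.00305), Uvrag the only one of 34 autophagy genes (0.64 ± 0.10, adjusted p = 0.00738), Atp6v0d2 of 30 lysosomal genes, Cenpa of 24 mitosis genes (-0.49, adjusted p = 0.0228; 0.0764 with the replicate block, 0.0956 without ERRα-/- PBS replicate 3) and Esr1 of 21 nuclear receptors (0.39, adjusted p = 0.0245; 0.0714 with the replicate block, 0.0997 without ERRα-/- PBS replicate 2). None was called among 25 DNA replication, 15 circadian clock and 9 pentose phosphate genes. Of 55 measured genes within 1 Mb of Esrra 3 were called (5.45%): Tm7sf2 (0.77) and Batf2 (0.58) higher and Rasgrp2 (-0.66) lower, where Batf2 lost its call with the replicate block (adjusted p = 0.113) and without any 1 of 11 arrays (up to 0.148, ERRα+/+ PBS replicate 1).

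The element that ERRα binds, TNAAGGTCA, was looked for in the same promoter windows. It was present on either strand in 96 of 10271 tested genes with a RefSeq promoter (0.935%), in 2 of 410 called lower (0.488%) and in 0 of 320 called higher, beside 1.28% of all windows. The 2 lower genes were Igf1r, the insulin-like growth factor receptor (-0.40 ± 0.09, adjusted p = 0.0375), and Sgms1, a sphingomyelin synthase (-0.40 ± 0.09, adjusted p = 0.0282). Both calls ended with the replicate block (adjusted p = 0.109 and 0.0648) and without any 1 of 9 and 6 arrays (up to 0.118 without ERRα+/+ PBS replicate 1 and 0.112 without ERRα-/- PBS replicate 2). In complex I it was found in Ndufb4 (-0.14 ± 0.09, adjusted p = 0.372; -0.093 by its other probe) and in ATP synthase in Atp5g3 (-0.19 ± 0.11, adjusted p = 0.344), neither of which was called. The 4 promoters, chosen for these matches after the values were seen, and the promoter of Esrra, which holds no match in this window, are printed as above with matches in capitals.
Igf1r, chr7:67952007-67952256, plus strand: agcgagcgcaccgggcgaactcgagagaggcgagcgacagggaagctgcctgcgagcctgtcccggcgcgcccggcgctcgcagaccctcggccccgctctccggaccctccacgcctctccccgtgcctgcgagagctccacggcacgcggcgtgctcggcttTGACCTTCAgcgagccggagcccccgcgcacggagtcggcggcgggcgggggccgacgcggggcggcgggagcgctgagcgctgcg
Sgms1, chr19:32349317-32349566, minus strand: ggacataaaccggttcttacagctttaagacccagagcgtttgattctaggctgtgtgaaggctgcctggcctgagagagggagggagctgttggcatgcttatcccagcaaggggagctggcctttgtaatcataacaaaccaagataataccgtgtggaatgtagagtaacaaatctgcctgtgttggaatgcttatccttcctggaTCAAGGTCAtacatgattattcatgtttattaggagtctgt
Ndufb4, chr16:37654369-37654618, minus strand: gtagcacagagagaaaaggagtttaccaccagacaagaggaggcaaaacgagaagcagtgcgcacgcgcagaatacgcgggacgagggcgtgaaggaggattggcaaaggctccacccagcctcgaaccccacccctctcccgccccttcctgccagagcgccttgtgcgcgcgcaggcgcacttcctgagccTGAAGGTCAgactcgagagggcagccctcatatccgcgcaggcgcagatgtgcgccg
Atp5g3, chr2:73911327-73911576, minus strand: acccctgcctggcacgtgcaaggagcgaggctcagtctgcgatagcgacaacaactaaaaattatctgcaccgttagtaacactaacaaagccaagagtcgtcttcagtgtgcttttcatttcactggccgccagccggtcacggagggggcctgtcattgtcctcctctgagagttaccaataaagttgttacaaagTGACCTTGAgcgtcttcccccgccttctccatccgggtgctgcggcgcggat
Esrra, chr19:6921809-6922058, minus strand: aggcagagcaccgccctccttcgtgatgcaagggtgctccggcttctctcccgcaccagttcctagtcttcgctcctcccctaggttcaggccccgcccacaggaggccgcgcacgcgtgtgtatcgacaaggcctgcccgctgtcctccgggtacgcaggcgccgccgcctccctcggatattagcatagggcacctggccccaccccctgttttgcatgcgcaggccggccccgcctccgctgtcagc
Igf1r and Atp5g3 hold the element as its reverse complement. The matches begin 86, 41, 57 and 52 bases before the start in Igf1r, Sgms1, Ndufb4 and Atp5g3.

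Most of the genotype difference seen in resting cells kept its direction under LPS. The LPS arrays give no value to the PBS difference, but they enter the spread behind its calls. Of the 967 genes called under PBS, 835 (86.35%) differed the same way in LPS-treated cells, against 60.91% of all genes. Of the 564 genes called from the 6 PBS arrays alone, a check chosen after the data were seen, 499 (88.48%) did. Under LPS 1860 genes were called (14.6% of those tested); 401 were called under both in the same direction, which is 41.47% of the PBS calls and 21.56% of the LPS calls, and 24 in opposite directions. The difference was smaller under LPS for 803 of the 967 (83.04%), which were chosen for their size under PBS. Syt10 and the tested probe of Dnm1 were far apart under LPS too (7.67 and 6.65), as were Il10 (1.73) and Cd59a (-1.59).

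The lists differed in this respect. Their counts under LPS stand beside 14.6% of all genes called there in either direction. Interferon-stimulated genes had a median of 0.454 under LPS, with 10 of 44 called higher and none lower, and the difference was smaller than under PBS for 43 of them. None of the 44 passed the test of the difference between the genotype differences, beside 1.2% of all genes. An unadjusted p under 0.05 was found there for 23 of them, beside 2400 of all 12783 genes. Cholesterol genes had a median of 0.966 under LPS, with 21 of 27 higher and 1 lower. Esrra differed by -2.11 under LPS (adjusted p = 0.0139), its own level being higher there in both genotypes (5.87 to 6.36 in ERRα+/+ and 3.83 to 4.40 in ERRα-/- cells).

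The difference of the genotype differences, LPS minus PBS, was called for 153 genes (1.2%), 57 of them also called under PBS. That count was 8 with the replicate block, 0 with no slide term and 0 with replicates 2 and 3 averaged (limma; 287 and 863 at an unadjusted p under 0.05), and ran from 13 without ERRα-/- PBS replicate 3 to 342 without replicate 1 of either PBS group. Pgm5, a phosphoglucomutase-like protein of cell adhesions, fell under PBS (-1.37, adjusted p = 0.00127) and rose under LPS (0.92, adjusted p = 0.00358), a change of 2.29 ± 0.17 (adjusted p = 0.00187). Edn1, the vasoconstrictor endothelin-1, was above background on no resting ERRα-/- array and at least 2.16-fold higher in resting ERRα+/+ cells (adjusted p = 0.0306), and under LPS it was higher in ERRα-/- cells by 1.56 (adjusted p = 0.0185), so the size of this turn is not measured. Its PBS call ended without PBS replicate 2 or 3 of either genotype (adjusted p up to 0.114) and with the replicate block (0.0864). Emilin1, a matrix glycoprotein, differed by 0.98 under PBS and -0.96 under LPS (adjusted p = 0.0271 and 0.0201; above background on 2 and 1 of 3 LPS arrays of ERRα+/+ and ERRα-/- cells), the former up to 0.101 without 1 PBS array, ERRα-/- replicate 3. Ccl7, a monocyte attractant, differed by 0.03 in resting cells and by 2.66 under LPS (adjusted p = 0.954 and 0.0011).

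**Figure D5:**
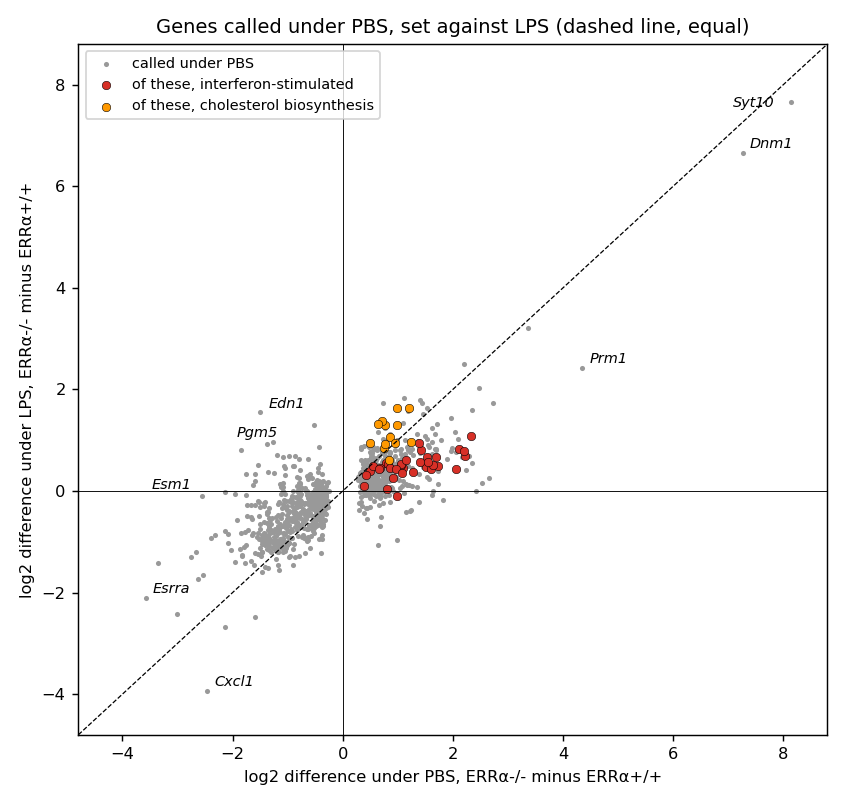
Each point is 1 of the 967 genes called under PBS, with its log2 genotype difference (ERRα-/- minus ERRα+/+) under PBS on the x axis and under LPS on the y axis; the dashed line marks equal differences. Of the points 835 have the same sign on both axes; interferon-stimulated genes lie below the dashed line, Edn1 is drawn at its fitted value, and Edn1 and Pgm5 lie in the upper left corner.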

How the data were processed

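Total RNA of 12 samples was labelled with Cy3 and hybridised to one-colour Agilent mouse arrays with 62976 spots, 1 array per sample. The deposited scanner files hold intensity values: the authors' Feature Extraction software (11.5.1.1 per the file headers, 9.3.2.1 per the submitters' processing notes) gave each spot a processed signal, already background-subtracted, and flag columns that say whether it is well above background. The flags are yes or no values deposited beside the intensities. The series' deposited table holds the same processed signals on all 62976 spots. It is therefore no separate alternative, and it gave the same 967 calls.

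From these, log2 of the processed signal was taken, the 75th percentile over non-control probes was subtracted from each array, and spots of a probe were averaged. A probe was kept if every array of either PBS group had it flagged well above background, 35 probes with a non-uniform spot were left out, and each gene was represented by its brightest probe over the 6 PBS arrays, which left 12783 genes. limma 3.58.1 in R 4.3.3 was fitted to all 12 arrays with 1 mean per group and a slide effect for each treatment (6 residual degrees of freedom, prior 2.39), with Benjamini-Hochberg adjustment over all genes. The method was tested on simulated data. Where a gene was above background on all arrays of 1 PBS group and none of the other, its size in the report is a lower bound against the lowest signal that counts as above background.

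Named genes were Esrra, Tnfaip3 and a few others by name, the 15 largest rises and falls and the 10 smallest p-values in each direction, up to 4 called members of each gene list and up to 5 genes each way for the difference between treatments; others are said to be chosen after their values were seen. Some genes are counted in their lists but not reported here by name. The comparison, the lists and the rule were chosen with earlier results of these data known. Same-numbered arrays deviated together (r = 0.689, 0.475 and 0.482 for PBS replicates 1, 2 and 3), which is largely the slide: the difference between replicates 2 and 3 correlated at -0.0284 between the PBS groups. The block was run for every called gene named in the report and is given where it ends the call. Promoters are RefSeq windows from 250 bases before to 50 after the start (GRCm38.p6), matched by symbol for 10271 of the 12783 genes.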

Additional observations from a re-analysis of the deposited data

Results flagged for a closer look

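The genotype difference itself differed between PBS and LPS for 153 genes by limma's test of that difference (adjusted p under 0.05). Values below are the LPS minus the PBS difference on the log2 scale. Pgm5 changed by 2.29, Esm1 by 2.46, Ccl7 by 2.62 and Edn1 by 3.07. Smaller upward shifts were those of Epb41l3 (1.36), Fosl2 (0.93), Fabp4 (0.82), Bcl2a1d (0.81), Sirt1 (0.66) and the immediate early factor Egr1 (1.56). Downward shifts were those of Emilin1 (-1.94), Vgll4 (-1.78), A530088E08Rik (-1.71), Pim2 (-1.63), Slc35g1 (-1.55), Slc2a6 (-0.98) and Rnf24 (-0.91). Egr1 turned from -0.87 under PBS to 0.69 under LPS, and Fabp4 from -0.45 to 0.37. Some of these fitted shifts rest on signals near background, and their size is not measured. Esm1 was above background on no resting ERRα-/- array and on 1 of 3 arrays of each LPS group, and Edn1 on no resting ERRα-/- array. Under LPS, Vgll4 was above background on 2 of 3 ERRα+/+ and 0 of 3 ERRα-/- arrays, A530088E08Rik on 1 and 0, and Emilin1 on 2 and 1. The other genes named here were above background on all 12 arrays.

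Probes without a gene name lie outside the comparisons above. Of 10287 such probes that passed the same filter, 96 were called under PBS, 61 higher and 35 lower in ERRα-/- cells.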

How the results depend on the processing

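The main fit called 967 genes under PBS (412 higher, 555 lower), with 34 interferon-stimulated genes, 13 cholesterol genes, 9 erythroid and megakaryocyte markers, 7 stromal and endothelial markers, and 153 genes for the difference between treatments. With no slide term these were 62 (9 higher, 53 lower), 0, 0, 5, 2 and 0, and 14.5% of the calls were rises in place of 42.6%. With slide as an additive block 294 genes were called (93 higher, 201 lower), with 5 interferon-stimulated genes and 0 for the difference between treatments; with slide as a random block 238 (71 and 167), 7 interferon-stimulated, 7 cholesterol and 0. The replicate block gave 470 (176 higher, 294 lower), 21 interferon-stimulated genes and 8, and 455 of the 967 genes remained called. The 6 PBS arrays alone gave 564 (176 higher), 16 interferon-stimulated and 7 cholesterol genes. Centring on each array's median gave 586 (250 and 336) and 21. No filter on dim probes gave 314 (116 and 198), 15 interferon-stimulated, 5 cholesterol, 3 stromal markers and 10. Normexp correction gave 1615 (691 and 924) and 259, array weights 1753 (817 and 936) and 1004, an eBayes trend 297 and slide 2 alone 603 for the difference between treatments. With replicates 2 and 3 averaged, an alternative chosen after seeing the data that leaves 2 residual degrees of freedom, limma called 0 genes in every count (1570 under PBS at an unadjusted p under 0.05, smallest adjusted p = 0.0549), and Esrra differed by -3.20 (adjusted p = 0.173). Apart from the averaging and slide settings, the causes were not tested.

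Leaving out 1 array at a time gave 411 to 1162 genes (161 to 471 higher, 232 to 691 lower), 22 to 35 interferon-stimulated genes, 4 to 15 cholesterol genes, 8 to 9 erythroid and 4 to 9 stromal markers, 13 to 342 genes for the difference between treatments, and an Esrra difference of -4.34 to -3.28. No gene of the 967 changed sign in any of these fits, except 4 when all probes of a gene were averaged. Fits that differ only in the slide or replicate term, or in the LPS arrays used, keep the same PBS difference, so its sign could not change there. Nor could it with slide 2 alone or with replicates 2 and 3 averaged, as all 967 agreed in direction over the 3 pairs. Uncalled genes that changed sign were Mrps22 (0.023), Ccl7 (-0.111) and Cycs (-0.025) with normexp, Cycs with averaged probes (-0.104), and, without ERRα+/+ PBS replicate 3, Esrrb, Cycs and Sirt3. Over the arrays left out in turn their differences ran from -0.881 to 0.082 for Esrrb, which also turned without ERRα-/- PBS replicate 2 (0.039), from -0.038 to 0.132 for Cycs and from -0.011 to 0.134 for Sirt3.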
